A study of Macaca mulatta with 30 samples.

Results

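Saliva carries a set of secreted antimicrobial proteins, and 8 of their genes are described here across 5 rhesus macaque tissues: LYZ, LPO, LTF, LCN2, SLPI, PI3, WFDC2 and CAMP. They were chosen by name, whatever their values, and all 8 were present among the 21292 genes of the deposited abundance table. Libraries came from liver, pancreas and 3 salivary glands (parotid, submandibular, sublingual) of 6 Macaca mulatta, with 1 library for each tissue of each animal and 30 altogether. The females were numbered 1 to 4 and the males 5 and 6. All tissue was flash frozen, the parotid of animal 3 was the right gland and the other parotids were the left. The labels used here give no age or treatment. The series was built to follow amylase expression in salivary and digestive tissues, with tissues contrasted within the same animal.

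Salivary antimicrobial proteins act at the mucosal surface by several routes. Lysozyme cuts the peptidoglycan of bacterial cell walls, lactoperoxidase turns thiocyanate and hydrogen peroxide into the oxidant hypothiocyanite, and lactoferrin and lipocalin 2 withhold iron. A group of small whey acidic protein (WAP) family members combines protease inhibition with antimicrobial activity, and cathelicidin is the precursor of a membrane-disrupting peptide.

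Values are TPM, the abundance of a gene's transcripts corrected for their length and scaled to a fixed total per library. Fold changes are differences in log2(TPM + 1) from a limma model with tissue and animal, with standard errors (SE). A gene was called when its adjusted p-value, over 13550 genes, was below 0.05. The replicates of a tissue are 6 separate animals. In these bulk libraries, fewer cells of a type and less RNA per cell cannot be told apart.

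Several libraries stood apart from others of their tissue. The pancreas library of animal 4 summed to 4480 TPM over 12 pancreatic acinar markers, against a median of 367316 TPM for pancreas. The submandibular library of animal 4 held 1759 TPM of 7 serous acinar markers, against a median of 279677 TPM. The parotid of animal 6 held 107470 TPM of 8 skeletal muscle markers, and the sublingual glands of animals 1 and 4 held 35545 and 92493 TPM of 8 squamous epithelium markers. Values without them are given beside the results that they moved most.

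The sublingual gland had the highest mean level of 7 of the 8 genes, and CAMP was highest in liver. Summed over the 8 genes, the sublingual libraries held 5873 to 42569 TPM, with a mean of 21904 ± 15278 (SD, n = 6). The parotid sum averaged 1530 ± 1056 TPM and the submandibular sum 1026 ± 715 TPM. Liver had 371.5 ± 78.7 TPM and pancreas 266 ± 126 TPM. LYZ made up most of that sum in parotid, with a median share of 77.1%, and in submandibular gland, with 64.4%. In the sublingual gland its median share was 48.8%. The test over all 5 tissues called 8 of 8 genes, beside 66.8% of all genes tested. LTF passed the filter on low values only through the sublingual gland and CAMP mainly through the liver, so that for these genes a difference was built into passing.

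**Figure D1:**
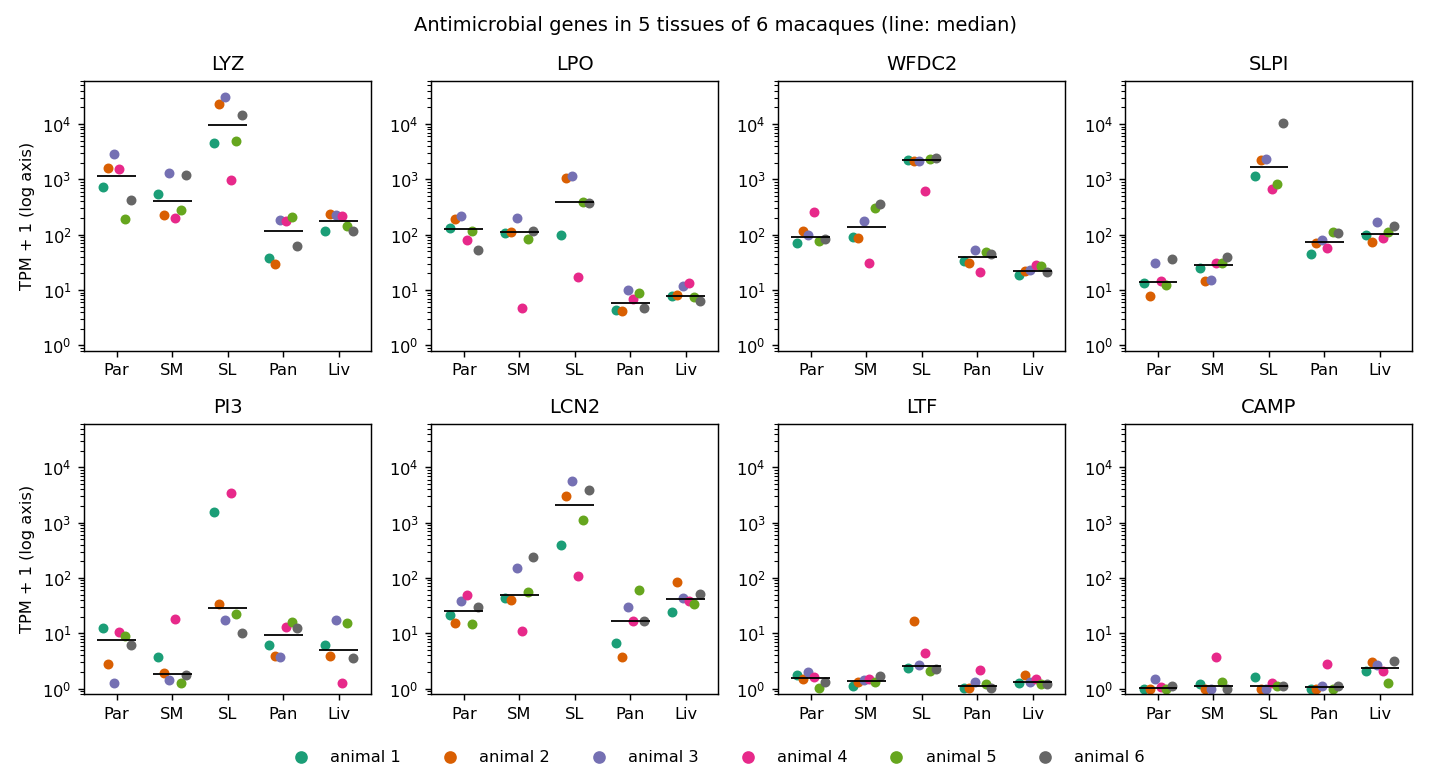
TPM + 1 on a log axis for each of the 8 genes in parotid (Par), submandibular (SM), sublingual (SL), pancreas (Pan) and liver (Liv), with 1 point per animal and a line at the median. The 6 sublingual points of SLPI and of WFDC2 lie above every point of the other tissues, although those of SLPI spread widely. Those of LYZ, LPO, LCN2 and PI3 also spread widely and reach into the range of at least 1 other tissue.

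LYZ, the lysozyme gene, was the most abundant of the 8 in all 3 salivary glands and ranked between the 3rd and the 170th most abundant gene of a sublingual library. Sublingual levels ran from 957 TPM in animal 4 through a median of 9818 TPM to 31311 TPM in animal 3. Parotid levels ran from 190 to 2830 TPM with a median of 1154 TPM, and submandibular levels from 203 to 1308 TPM with a median of 413 TPM. Those gland ranges overlapped. Pancreas held 28.9 to 210 TPM, with a median of 117 TPM, and liver 115 to 235 TPM, with a median of 177 TPM, and neither overlapped the sublingual range.

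The sublingual excess of LYZ over parotid was 3.17 on the log2 scale (SE 0.67, limma adjusted p = 8.98e-04), and LYZ was higher in the sublingual gland of 5 of 6 animals. The exception was animal 4, with 957 TPM in sublingual and 1571 TPM in parotid. Under a trimmed-mean scaling, which sets the libraries to a common level of the middle genes, this excess was 2.13 and missed the threshold (limma adjusted p = 0.0504). Over the submandibular gland the excess was 4.05 (adjusted p = 2.02e-04), over pancreas 6.47 (adjusted p = 1.10e-07) and over liver 5.55 (adjusted p = 1.63e-07), each in 6 of 6 animals. Without the sublingual libraries of animals 1 and 4 the 4 excesses were 4.07, 4.95, 7.37 and 6.45 in the same order, each still called. The excess over pancreas ran from 5.84 without animal 2 to 7.27 without animal 4. LYZ followed the order sublingual, parotid, submandibular, liver and pancreas by mean log2 level, but only the step from sublingual to parotid was called between neighbours in that order.

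LPO, which encodes lactoperoxidase, had a different distribution from LYZ, with all 3 glands far above pancreas and liver. Parotid levels ran from 51.4 through a median of 125 to 221 TPM. Submandibular levels ran from 3.79 through 109 to 195 TPM, and sublingual levels from 16.1 through 387 to 1158 TPM. The lowest submandibular and sublingual values were both in animal 4, whose submandibular library was the one low in serous markers. Pancreas held 3.23 to 9.07 TPM and liver 5.29 to 12.3 TPM.

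LPO was 4.28 higher on the log2 scale in parotid than in pancreas (SE 0.65, limma adjusted p = 3.55e-05) and 3.77 higher in parotid than in liver (adjusted p = 3.46e-05), with no overlap between groups. Submandibular gland exceeded pancreas by 3.50 (adjusted p = 5.36e-04) and liver by 2.99 (adjusted p = 5.50e-04) in 5 of 6 animals, and without animal 4 the differences were 4.30 and 3.88. Sublingual gland exceeded pancreas by 5.41 (adjusted p = 1.06e-06) and liver by 4.89 (adjusted p = 1.01e-06) in 6 of 6 animals, and by 6.52 and 6.00 without the sublingual libraries of animals 1 and 4. Between glands the differences were less stable. The sublingual value was 1.12 above parotid with an adjusted p of 0.161 in limma, and 1.91 above submandibular gland with an adjusted p of 0.0322. Without the sublingual libraries of animals 1 and 4 these differences were 2.23 (adjusted p = 0.00796) and 3.01 (adjusted p = 0.00161). The parotid difference was also called without animal 4 (1.80, limma adjusted p = 9.62e-04), and the submandibular call was lost without animal 1, 2, 3 or 5 (limma adjusted p = 0.0538 to 0.14), although the submandibular value stayed below the sublingual one by a similar amount, with differences of -2.31 to -1.64. Trimmed-mean scaling gave 0.10 against parotid and 1.00 against submandibular gland, with limma adjusted p-values of 0.947 and 0.411.

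MPO, the myeloperoxidase gene of neutrophil granules and a close relative of LPO, is the nearest protein-coding gene on the left of LPO in the RefSeq table of assembly T2T-MMU8v2.0. Of all genes tested, MPO had the level most like that of LPO over the 30 libraries (Pearson r = 0.981 across libraries, and 0.980 over 28 libraries), a description of libraries that share tissues and animals. MPO averaged 21.4 ± 10.1 TPM in parotid and 65.5 ± 74.3 TPM in sublingual gland, against 0.632 ± 0.280 TPM in pancreas (SD, n = 6). As a percentage of LPO it kept to a narrow band, from 4.99 to 19.8% over all libraries, with a median of 17.4% for parotid and medians of 10.5 to 12.4% for the other tissues. How the authors' quantification divided reads between these similar genes is not given in the sources used here, so the MPO level is uncertain, and the part of shared reads in it was not tested.

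The hydrogen peroxide that lactoperoxidase uses is made by the dual oxidases DUOX1 and DUOX2, each with a maturation factor. Of 13 genes listed for the peroxidase system, 12 were in the table and 4 passed the filter. In sublingual against pancreas 1 of the 4 was higher (ANO1, a chloride channel), beside 10.4% of all genes, and 1 lower (CFTR, another chloride channel), beside 3.51%. Under trimmed-mean scaling 0 of the 4 were higher, beside 10.9% of all genes, and 2 lower, beside 10.6%. DUOXA2, the DUOX2 maturation factor, did not pass the filter, and was at 9.32, 9.36, 0.238, 26.4, 8.48 and 0.0775 TPM in the sublingual glands of animals 1 to 6. Its highest value in any other tissue was 0.338 TPM, in pancreas. DUOX1 was at 65.2 and 48.0 TPM in the sublingual glands of animals 1 and 4, the libraries with squamous markers, and at most 0.855 TPM in the other 4. DUOX1 was thus highest in the sublingual libraries with the least LPO, at 98.1 and 16.1 TPM, whereas DUOXA2 was also present in animals 2 and 5. DUOX1 and DUOXA2 were picked after their values were seen. No values are given here for DUOX2 or for the DUOX1 maturation factor, so the supply of peroxide cannot be read from them.

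SLPI, the secretory leukocyte protease inhibitor, had the largest difference in mean log2 level between the sublingual gland and each of the other glands among the 8 genes. By the ratio of TPM means against submandibular gland, PI3 was above it, at 231 against 118. Sublingual levels were 1133, 2282, 2383, 681, 827 and 10463 TPM in animals 1 to 6. Parotid levels ran from 6.93 through a median of 13.1 to 35.6 TPM, and submandibular levels from 13.3 through 27.0 to 38.9 TPM. Even the lowest sublingual library therefore lay far above every parotid and submandibular library. Pancreas held 44.2 to 113 TPM with a median of 74.4 TPM, and liver 71.7 to 172 TPM with a median of 104 TPM.

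The sublingual gland exceeded parotid in SLPI by 6.76 on the log2 scale (SE 0.40, limma adjusted p = 1.29e-11), and the ratio of the TPM means was 161. It exceeded submandibular gland by 6.22 (adjusted p = 9.05e-11), pancreas by 4.61 (adjusted p = 1.15e-08) and liver by 4.06 (adjusted p = 4.72e-09), in 6 of 6 animals each time and with no overlap. SLPI was also the only 1 of the 8 genes called lower in parotid and submandibular gland than in pancreas. From parotid to pancreas it differed by -2.16 (adjusted p = 3.77e-04) and from parotid to liver by -2.70 (adjusted p = 3.83e-06), again in all 6 animals. These parotid and submandibular deficits depended on the scaling. With trimmed-mean scaling the difference of parotid from pancreas and from liver was -1.48 in both and kept its call, whereas the submandibular differences were -1.11 and -1.12 and lost theirs (limma adjusted p = 0.15 and 0.0739). With quantile normalisation the limma adjusted p was 0.0507 for parotid against pancreas and 0.130 for parotid against liver, and it was 0.160 and 0.364 for submandibular gland against pancreas and liver. Over all genes the median log2 difference was -0.48 for parotid against pancreas and -0.84 for parotid against liver, so that most genes lay lower in parotid, and the SLPI values are to be read relative to those shifts.

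WFDC2, another WAP family member, had the smallest coefficient of variation of the 8 genes in the sublingual gland, 33.9% over 6 animals, against 90.5% for LYZ and 126% for SLPI. Its sublingual levels were 2286, 2149, 2134, 624, 2317 and 2388 TPM in animals 1 to 6. Without animal 4, which was far below the others, the coefficient was 4.88% over 5 animals, and in the same libraries it was 73.7% for LYZ and 117% for SLPI. The sublingual library of animal 4 held 2354 TPM of 11 mucous acinar markers and 2686 TPM of 7 serous acinar markers, the lowest of the 6 for both, and the part of that in its WFDC2 value was not tested.

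Outside the sublingual gland WFDC2 ran from 68.9 through a median of 90.2 to 258 TPM in parotid and from 29.4 through 134 to 365 TPM in submandibular gland. Pancreas held 20.4 to 52.5 TPM and liver 17.7 to 26.8 TPM. The sublingual excess was 4.12 over parotid (SE 0.44, limma adjusted p = 3.00e-07), 3.81 over submandibular gland (adjusted p = 2.31e-06), 5.63 over pancreas (adjusted p = 1.93e-09) and 6.31 over liver (adjusted p = 3.42e-12). All 4 held in 6 of 6 animals with no overlap. WFDC2 was also higher in parotid than in liver by 2.19 (adjusted p = 1.83e-04) and in submandibular gland than in liver by 2.50 (adjusted p = 4.47e-05). Parotid exceeded pancreas by 1.51 (limma adjusted p = 0.0198), and without animal 1, 2 or 3 the difference was 1.60, 1.43 or 1.63, about as large, but the adjusted p was 0.0509, 0.0847 or 0.0639.

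PI3 encodes elafin, an elastase inhibitor that is also cross-linked into the envelope of stratified squamous epithelium, and 2 libraries carried most of its signal. Animal 1 had 1527 TPM in its sublingual gland and animal 4 had 3485 TPM, and the levels were 33.0, 16.4, 21.2 and 9.04 TPM in animals 2, 3, 5 and 6. Parotid ran from 0.257 through a median of 6.49 to 11.6 TPM, submandibular gland from 0.250 through 0.865 to 16.9 TPM, pancreas from 2.75 through 8.31 to 15.2 TPM and liver from 0.281 through 4.02 to 16.1 TPM. The other 4 sublingual libraries thus lay close to or within the range of the other tissues. In the library of animal 4, PI3 made up 59.3% of the summed 8 genes.

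The animals with high PI3 were those with squamous epithelium markers. The 8 markers in the table, of 10 listed, summed to 35545 and 92493 TPM in the sublingual glands of animals 1 and 4, to 81.2 to 516 TPM in the other 4 sublingual libraries, and to 6.41 to 565 TPM in the 24 libraries of other tissues. The liver library of animal 4, with the lowest marker sum, held 0.281 TPM of PI3. The genes most like PI3 in level over the 30 libraries were CNFN, a cornified envelope gene (Pearson r = 0.956), LYPD2 (0.952) and SLURP2 (0.937). The part of squamous epithelium in the PI3 result was not tested beyond leaving these libraries out.

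**Figure D2:**
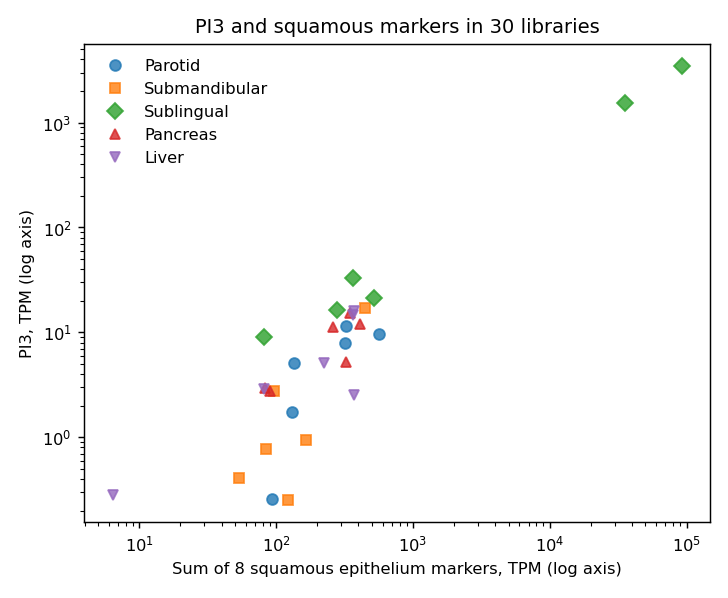
PI3 in TPM against the summed TPM of 8 squamous epithelium markers, both on log axes, with 1 point per library and a symbol per tissue. The sublingual libraries of animals 1 and 4 stand alone at the upper right, with 1527 and 3485 TPM of PI3, and the other 28 libraries hold at most 33.0 TPM.

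With all libraries the sublingual gland exceeded the others in PI3 by 4.12 against parotid (SE 0.97, limma adjusted p = 0.00215), 5.11 against submandibular gland (adjusted p = 6.94e-04), 3.58 against pancreas (adjusted p = 0.0120) and 4.09 against liver (adjusted p = 0.00158). Groups overlapped in all 4 comparisons. Without the sublingual libraries of animals 1 and 4 the excesses were 2.06 (adjusted p = 0.0381), 3.04 (adjusted p = 0.00684), 1.51 (adjusted p = 0.239) and 2.02 (adjusted p = 0.0476). The call against pancreas was lost, and the other 3 were kept at a smaller size. Leaving out single animals gave 2.63 to 4.90 against liver. The pancreas call was also lost without all libraries of animal 1 (2.71, limma adjusted p = 0.137) or animal 2 (3.67, adjusted p = 0.0511).

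LCN2, lipocalin 2, binds bacterial siderophores and so keeps iron from bacteria. Its sublingual levels were 395, 3071, 5565, 106, 1096 and 3846 TPM in animals 1 to 6. Parotid ran from 13.8 through a median of 24.5 to 48.1 TPM and submandibular gland from 10.1 through 48.6 to 240 TPM. Pancreas held 2.75 to 59.5 TPM and liver 23.6 to 82.7 TPM. Only the submandibular range reached into the sublingual one.

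The sublingual excess of LCN2 was 5.57 over parotid (SE 0.68, limma adjusted p = 2.23e-06), 4.38 over submandibular gland (adjusted p = 1.14e-04), 6.30 over pancreas (adjusted p = 2.17e-07) and 4.82 over liver (adjusted p = 2.46e-06), in 6 of 6 animals. Without the sublingual libraries of animals 1 and 4 these were 6.59, 5.40, 7.32 and 5.84, each still called. The excess over parotid was 6.46 without animal 4, and that over pancreas ran from 5.63 without animal 2 to 7.02 without animal 4. LCN2 in submandibular gland and pancreas differed by 1.93 with an adjusted p of 0.0743 in limma, higher in 4 of 6 animals. Without the libraries of animal 4 for these tissues that difference was 2.43 (adjusted p = 0.0156). LCN2 in sublingual libraries was lowest in animals 4 and 1, as were LYZ, LPO and the mucous acinar marker sum, which was 2354 and 31749 TPM there and 151568 TPM or more in the other 4.

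**Figure D3:**
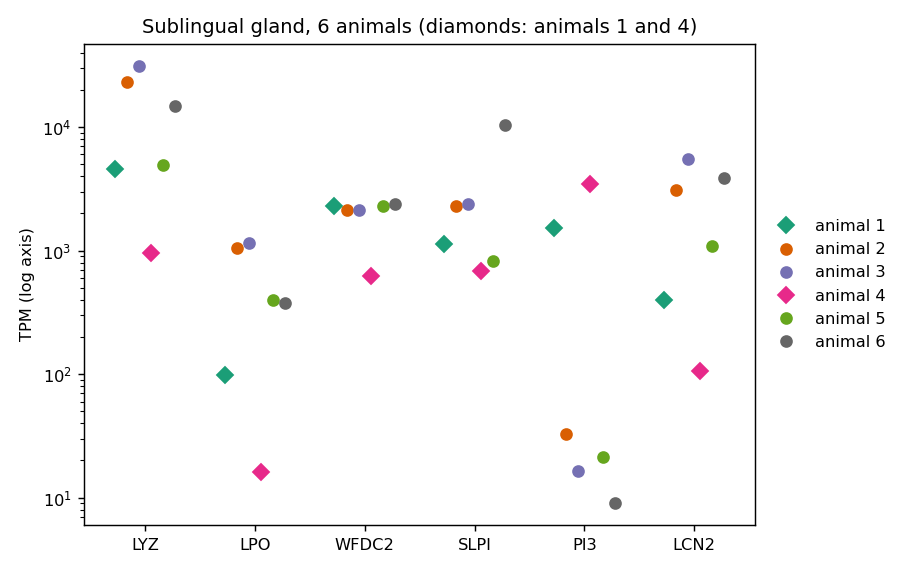
TPM on a log axis of LYZ, LPO, WFDC2, SLPI, PI3 and LCN2 in the 6 sublingual libraries, with 1 symbol per animal and diamonds for animals 1 and 4. Animals 1 and 4 are lowest in LYZ, LPO and LCN2 and highest in PI3, while WFDC2 stays between 2134 and 2388 TPM in all animals but animal 4.

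LTF, the gene of the iron-binding protein lactoferrin, was barely present in any of these libraries. Its sublingual levels were 1.38, 15.6, 1.64, 3.47, 1.04 and 1.25 TPM in animals 1 to 6. Parotid stayed between 0.0373 and 0.952 TPM, submandibular gland between 0.120 and 0.680 TPM, pancreas between 0.0138 and 1.12 TPM and liver between 0.201 and 0.742 TPM. Only the sublingual library of animal 2 exceeded 4 TPM. The sublingual excess was 1.27 over parotid (SE 0.30, limma adjusted p = 0.00228), 1.39 over submandibular gland (adjusted p = 0.00193), 1.54 over pancreas (adjusted p = 5.82e-04) and 1.41 over liver (adjusted p = 5.58e-04), all on a scale that understates the fold of such low values. The difference from parotid was 0.82 with a limma adjusted p of 0.0707 under trimmed-mean scaling, and LTF failed the filter without the sublingual libraries of animals 1 and 4. Since LTF passed the filter only through the sublingual gland, these adjusted p-values are not independent of passing.

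CAMP, the cathelicidin gene, was near or at the limit of what the table lists. It was listed at 0 in 11 of 30 libraries, 3 each of parotid, submandibular gland and pancreas and 2 of sublingual gland. Its liver levels were 1.05, 2.08, 1.69, 1.04, 0.267 and 2.17 TPM in animals 1 to 6. Outside liver the highest values were 2.68 TPM in the submandibular gland and 1.77 TPM in the pancreas of animal 4, and all others were at most 0.616 TPM.

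CAMP was the only 1 of the 8 genes called lower in the glands than in liver at every gland. It passed the filter mainly through the liver, so its calls against liver, wherever counted, are not independent of passing. The log2 difference from liver was -1.04 for parotid (SE 0.26, limma adjusted p = 0.00150), -0.76 for submandibular gland (adjusted p = 0.0166), -0.96 for sublingual gland (adjusted p = 0.00478) and -0.89 for pancreas (adjusted p = 0.00977). The submandibular call was lost without animal 2, 3 or 6 (-0.63 to -0.58, limma adjusted p = 0.0918 to 0.119) and the pancreas call without animal 2 or 6 (-0.74 and -0.76, adjusted p = 0.083 and 0.0613). Without the submandibular and pancreas libraries of animal 4, CAMP failed the filter and was not tested. Macrophage markers were high in the tissue and in the 2 other libraries with the highest CAMP. The 12 markers summed to 479 to 1025 TPM in liver, 1601 TPM in the submandibular gland of animal 4 and 530 TPM in the pancreas of animal 4. In parotid they summed to 18.9 to 30.6 TPM and in sublingual gland to 23.0 to 233 TPM. Within liver the order differed, since animal 6 had the lowest marker sum and the highest CAMP. The genes most like CAMP in level were FCGR2B (Pearson r = 0.903, and 0.866 over 28 libraries), MRC1 (0.893) and ITGAX (0.892), all known from myeloid cells. The red blood cell markers were also high in the animal 4 submandibular and pancreas libraries, at 10380 and 13442 TPM. Adipose markers reached 7840 TPM in a submandibular library and 18013 TPM in a pancreas library, against tissue medians of 69.0 and 84.1 TPM. The part of any of these cell types in CAMP was not tested.

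**Figure D4:**
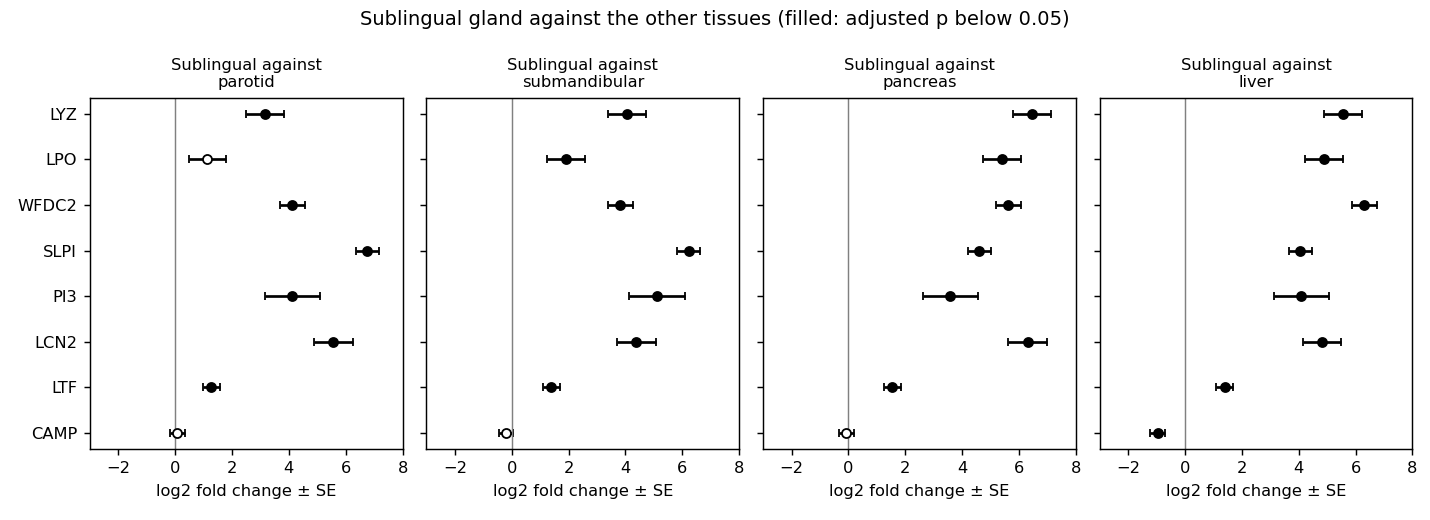
log2 fold change of each of the 8 genes in sublingual gland against parotid, submandibular gland, pancreas and liver, with bars for 1 SE and filled points for adjusted p below 0.05. SLPI, WFDC2 and LCN2 lie between 3.81 and 6.76 in all 4 panels, LPO against parotid is open, and CAMP lies below 0 against liver.

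Set side by side, the comparisons with sublingual gland held most of the calls. Parotid was lower than sublingual in 6 of 8 genes, beside 40.6% of all genes tested, and submandibular gland was lower in 7 of 8, beside 27.2%. Sublingual gland was higher than pancreas in 7 of 8, beside 10.4%, and higher than liver in 7 of 8, beside 12.8%, with 1 lower (CAMP), beside 18.7%. The median log2 difference of the 8 genes was -3.64 for parotid against sublingual, where the median over all genes was -0.70, and 5.01 for sublingual against pancreas, where that over all genes was 0.23. With trimmed-mean scaling the counts were 4 of 8 lower in parotid than sublingual, beside 9.76% of all genes, and 6 of 8 lower in submandibular than sublingual, beside 8.58%. That scaling left 7 of 8 higher in sublingual gland than in pancreas, beside 10.9%, and 7 of 8 higher than in liver, beside 22.3%, with 1 lower, beside 22.1%. These comparisons share the sublingual libraries. The counts include LTF, which passed the filter only through the sublingual gland, and CAMP, which passed mainly through the liver. For these genes a difference was built into passing, so their calls add no support.

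Parotid and submandibular gland were not called different in any of these genes, with 0 of 8 called by limma, beside 0.347% of all genes, and 0 had an unadjusted p below 0.05. The closest was LCN2, with a log2 difference of -1.19 (SE 0.68) and a lower value in the parotid of 5 of 6 animals. These p-values do not show that the 2 glands were alike. Parotid exceeded pancreas in 3 of 8 genes (LYZ, LPO and WFDC2), beside 2.24% of all genes, and was lower in 1 (SLPI), beside 13.6%. Parotid exceeded liver in the same 3 genes, beside 4.61%, and was lower in SLPI and CAMP, beside 53.4%. Trimmed-mean scaling gave the same counts, beside 7.96% higher and 9.03% lower of all genes against pancreas and 21.2% higher and 22.4% lower against liver.

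Submandibular gland exceeded pancreas in LYZ, LPO and WFDC2, beside 2.25% of all genes, and was lower in SLPI, beside 7.46%. The LYZ difference was 2.42 (SE 0.67, limma adjusted p = 0.0179) and held in 6 of 6 animals, and that of WFDC2 was 1.81 (SE 0.44, adjusted p = 0.00671). The LYZ call was lost without animal 1, 2, 3 or 6 (2.04 to 2.34, limma adjusted p = 0.052 to 0.12). That of SLPI was lost without animal 2 or 3 (-1.48 and -1.46, limma adjusted p = 0.0634 and 0.0711) and that of WFDC2 without animal 5 (1.65, adjusted p = 0.0555). Against liver, submandibular gland was higher in LPO and WFDC2, beside 5.68%, and lower in SLPI and CAMP, beside 45.1%. LYZ in submandibular gland and liver differed by 1.50 with a limma adjusted p of 0.062, and was called without animal 2 (1.82, adjusted p = 0.0443) or animal 4 (1.81, adjusted p = 0.00937). With trimmed-mean scaling submandibular gland was higher than pancreas in 4 of 8 and lower in 0, beside 7.78% and 8.35% of all genes, and higher than liver in 3 and lower in 1, beside 22.3% and 24.2%. Pancreas and liver differed in 1 of 8 genes, CAMP, which was lower in pancreas, beside 23.6% of all genes (19.5% with trimmed-mean scaling). Without animal 4, whose pancreas library held few acinar markers, CAMP was not tested and 2 others were called. WFDC2 was then higher in pancreas than in liver by 0.90 (limma adjusted p = 0.015) and LCN2 differed by -1.53 (adjusted p = 0.0332).

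Low levels outside the tissue of highest expression were compared with those of genes used as markers of another tissue. Each of 16 hepatocyte markers was expressed as a percentage of its liver mean, and the median was 0.621 to 0.780% in the glands and 0.879% in pancreas. TTR reached 11.8% in pancreas, with a mean of 1341 TPM there, and so was not confined to liver. The 11 pancreatic acinar markers with means of at least 100 TPM lay at a median of 0.656 to 1.13% of their pancreas mean in the other 4 tissues, and at most at 1.10% in parotid, 0.847% in submandibular gland and 1.46% in liver. Members of the antimicrobial set were expressed in the same way relative to their sublingual mean. For PI3 that mean, 848.7 TPM, came mostly from the libraries of animals 1 and 4, those with squamous markers. Over animals 2, 3, 5 and 6 the sublingual mean of PI3 was only 19.9 TPM, and means outside this gland ran from 3.68 to 8.28 TPM. The low PI3 shares given here thus depend on the libraries of animals 1 and 4. In pancreas LYZ stood at 0.870%, LCN2 at 0.909%, PI3 at 0.975% and LPO at 1.07%, near the hepatocyte median there, and WFDC2 at 1.89% and SLPI at 2.62% were further above it. In liver PI3, WFDC2 and LYZ, at 0.815%, 1.12% and 1.32%, did not exceed the highest acinar marker, whereas LPO at 1.57%, LCN2 at 1.92% and SLPI at 3.82% did. In parotid PI3 and SLPI, at 0.713% and 0.621%, lay below the highest acinar marker, and LCN2 at 1.15%, WFDC2 at 5.86%, LYZ at 9.28% and LPO at 25.7% lay above it. In submandibular gland PI3 was at 0.434% and SLPI at 0.847%, and LCN2 at 3.80%, LYZ at 4.76%, WFDC2 at 8.79% and LPO at 19.9% lay above the highest acinar marker. All these shares are ratios of means over the animals, and single animals spread widely around them. LYZ was at 172 TPM in pancreas and 957 TPM in sublingual gland of animal 4, but at 28.9 and 22960 TPM in animal 2. Pancreas LCN2 ran from 2.75 to 59.5 TPM. A share near a marker median therefore does not hold for each animal. The origin of the low shares was not tested.

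**Figure D5:**
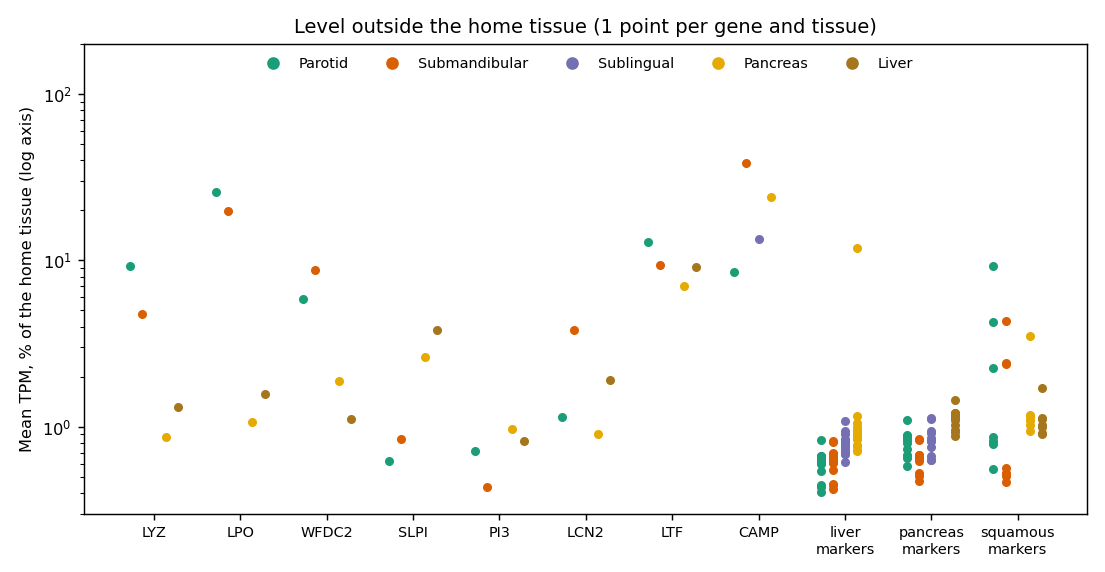
Mean TPM of each of the 8 genes in each tissue as a percentage of its mean in the tissue where it was highest, on a log axis, with liver (hepatocyte), pancreas (acinar) and squamous epithelium marker genes measured the same way, 1 point per gene and tissue. LYZ, LPO and LCN2 in pancreas lie at 0.870 to 1.07%, near the hepatocyte markers' median of 0.879% there. The points are ratios of means and do not show the spread between animals.

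Other genes of salivary defence and genes known to regulate the antimicrobial set were examined from lists. Of 30 other salivary defence genes, 26 were in the table and 25 were tested, and 17 were lower in parotid than in sublingual gland, beside 40.6% of all genes, and 3 higher, beside 0.893%. Trimmed-mean scaling gave 14 lower, beside 9.76%, and 3 higher, beside 8.05%. In sublingual gland against pancreas 17 of 25 were higher, beside 10.4%, and 0 lower. The 3 most abundant did not share 1 pattern. ZG16B, a mucous secretory lectin, averaged 171551 TPM in sublingual gland and 1536 TPM in parotid, whereas BPIFA2, a secreted lipid-binding protein, averaged 2231 TPM in sublingual gland and 89932 TPM in submandibular gland. CA6, the secreted carbonic anhydrase, averaged 2163 TPM in sublingual gland and 10406 TPM in submandibular gland.

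Among 16 genes listed as regulators of the set, 14 were tested, and 6 were lower and 0 higher in parotid than in sublingual gland. That share is near the 40.6% of all genes called lower there. Trimmed-mean scaling gave 4 lower, beside 9.76% of all genes, and 1 higher, beside 8.05%, so the nearness holds only without that scaling. ELF3, an epithelial transcription factor, ran from 24.9 to 329 TPM in sublingual gland and from 3.08 to 14.4 TPM in parotid. KLF5, another epithelial factor, ran from 12.4 to 148 TPM in sublingual gland and from 1.68 to 3.42 TPM in parotid. Both were picked from the list after their values were seen and do not stand for it. Their sublingual ranges include animals 1 and 4, the libraries with squamous markers. Among 31 listed relatives of the 8 genes, 26 were in the table, only 9 were tested, and 1 of these (WFDC1) was lower in parotid than in sublingual gland, a share below the 40.6% of all genes.

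Neutrophils also hold lysozyme, lactoferrin, lipocalin 2, SLPI and cathelicidin, so their markers were measured in the same libraries. Of 19 neutrophil genes, 17 were in the table. Their sum was 850 to 34641 TPM in sublingual gland and 82.0 to 324 TPM in parotid, but the sum followed a few genes. S100A9, which squamous epithelium also expresses, held 9293 and 24755 TPM in the sublingual glands of animals 1 and 4. Of 6 tested, OLFM4, CD177, PGLYRP1 and MPO were higher in sublingual gland than in pancreas and in liver, beside 10.4% and 12.8% of all genes, and 3 were lower in parotid than in sublingual gland (S100A8, CD177 and OLFM4), beside 40.6%. MPO is counted here although its level is uncertain, as described with LPO. The median level over the 17 genes was 0.0887 to 0.362 TPM in the 6 sublingual libraries. It was 0 to 0.0979 TPM in parotid, 0.0107 to 0.468 TPM in submandibular gland, 0.0246 to 0.303 TPM in pancreas and 0.423 to 1.84 TPM in liver. CSF3R, the granulocyte receptor, picked after its values were seen, was at 0.012 to 0.300 TPM in the sublingual libraries. It does not stand for the list, of which 4 of the 6 tested genes were higher in sublingual gland than in pancreas and in liver. The part of neutrophils in the levels of the 8 genes was not tested.

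The genes with levels most like those of LYZ were CSN3, the kappa-casein gene (Pearson r = 0.906 over 30 libraries), C2CD4D (0.901) and FAM3D (0.899). For LCN2 they were BPIFB1 (0.937), IL19 (0.935) and ZG16B (0.925). For WFDC2 they were MUC15 (0.956), CLDN8 (0.935) and ST8SIA6 (0.935), and for SLPI they were CLDN22 (0.936), NUDT14 (0.895) and FBXO16 (0.881). After MPO, LPO was most like AQP5, the water channel of acinar cells (0.968), and TMPRSS5 (0.965), and LTF was most like BPIFB6 (0.860), FDCSP (0.818) and CNMD (0.814). These coefficients describe 30 libraries that share 5 tissues and 6 animals. In the RefSeq table PI3 and SLPI lie close together, separated by SEMG2, yet their sublingual patterns differed, with PI3 highest in animals 4 and 1 and SLPI highest in animal 6.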

How the data were processed

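The authors deposited 1 table of TPM values for 21292 genes in 30 libraries, made with kallisto per the submitters' processing notes, and its version, the transcriptome and the genome build are not given in the sources used here. TPM keeps no sequencing depth, so no interval or detection limit is given, and its fixed total lowers other genes where a few dominate. A library held 8477 to 13515 genes with at least 1 TPM. 0 per-sample columns were left unused.

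Groups came from the labels. The filter kept the 13550 genes that reached 1 TPM in 6 or more libraries, and log2(TPM + 1) was fitted in limma 3.58.1 (R 4.3.3) with tissue and animal over all libraries, with a variance trend. Two-sided p-values received Benjamini-Hochberg adjustment over all genes tested in each of 10 comparisons, with a threshold of 0.05. Each animal gave all tissues per the labels, so animal entered as a block. The mean correlation of deviations from tissue means was 0.161 for libraries of the same animal and -0.0186 otherwise. The highest correlation of 2 libraries was 0.979, and 0 pairs were identical.

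Simulated data for sublingual against pancreas, with 13550 genes, tested the fit. It called 22% of 50 genes changed by log2 1 in the right direction, 70% at 2, 86% at 3 and 90% at 4, and 5.63% of its calls were false. The simulated noise was independent, with the same SD for a gene in every tissue and no animal effect. In the data the spread differed between tissues, as for LPO, with a log2 SD of 2.31 in sublingual gland and 0.546 in pancreas. The simulation therefore cannot give the error rate under unequal spread. The genes, lists and most tests were chosen with earlier results of these data known. Besides the 8 genes, the text names the 3 genes most correlated with each, the 3 most abundant of a list, genes at 0 and genes that small counts cover. The most correlated genes were sought among tested genes outside the 8 whose symbol does not start with LOC. CSF3R, S100A9, DUOX1, DUOXA2, ELF3 and KLF5 were chosen after their values were seen. Gene neighbours came from RefSeq's table of T2T-MMU8v2.0, which held 8 of 8 symbols. Alternatives were other scalings, filters, a pseudocount of 0.1, no block, only the 12 libraries compared, and leaving out animals or libraries. Leaving out the sublingual libraries of animals 1 and 4, or 5 libraries that stood apart, was chosen after seeing the data.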

Additional observations from a re-analysis of the deposited data

Results flagged for a closer look

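In 7 of 40 sets of 6 libraries the highest or lowest value lay far from the others, where chance alone gives about 2 (1 in 20). LTF in the sublingual gland of animal 2 was 15.6 TPM, and the next highest was 3.47 TPM. LTF in the pancreas of animal 4 was 1.12 TPM, with 0.295 TPM next. LPO in the submandibular gland of animal 4 was 3.79 TPM, with 83.4 TPM the next lowest. WFDC2 in the sublingual gland of animal 4 was 624 TPM, with 2134 TPM the next lowest. CAMP in the parotid of animal 3 was 0.515 TPM, with 0.109 TPM next. CAMP in the submandibular gland of animal 4 was 2.68 TPM, with 0.287 TPM next, and in the pancreas of animal 4 it was 1.77 TPM, with 0.124 TPM next. Of these 7 values, 5 belong to animal 4.

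In 2 of 80 comparisons the 4 females all moved one way and the 2 males the other, and random, independent signs would give about 2.5 of 80. LYZ in parotid against submandibular gland had a mean log2 difference of 1.84 in females and -1.04 in males. LTF in the same comparison had a mean of 0.35 in females and -0.35 in males. Neither difference between sexes was tested.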

How the results depend on the processing

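Of 80 gene comparisons, 46 were called, 33 of them kept their call in every alternative that tested them, and 0 of the called ones changed sign. Without the replicate block, 79 of 80 kept their direction and call, and LPO in submandibular against sublingual gland lost its call (limma adjusted p = 0.0692), which took that comparison from 7 to 6 genes. Quantile normalisation turned LPO in parotid against sublingual to 0.24, and in pancreas against liver LYZ to 0.18, LPO to 0.036 and SLPI to 0.56. Trimmed-mean scaling and quantile normalisation turned CAMP to 0.041 and 0.065 (parotid against sublingual) and to 0.022 and 0.025 (parotid against pancreas), and in parotid against liver LCN2 to 0.47 and 0.82 and PI3 to 0.88 and 0.93. A pseudocount of 0.1 turned CAMP in sublingual against pancreas to 0.071. Leaving out each animal gave ranges that crossed 0 for CAMP in parotid against sublingual (-0.22 to 0.041), PI3 in parotid against liver (-0.65 to 0.71), LTF in submandibular gland against liver (-0.075 to 0.099), PI3 in pancreas against liver (-0.054 to 1.05) and WFDC2 in parotid against submandibular gland (-0.98 to 0.066). The count called between submandibular gland and pancreas, 4, ranged from 2 to 5 without each animal, falling to 2 without animal 2 or 3. That between pancreas and liver, 1, ranged from 0 to 2, and was 0 with a filter of at least 5 TPM, 0 without the pancreas and submandibular libraries of animal 4, and 2 without 5 libraries that stood apart. CAMP and LTF failed some of these filters, and the cause of the other changes was not tested. The depth behind these values is unknown, which matters most for LTF and CAMP.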
